A study of Homo sapiens with 3 samples.

Results

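The mitochondrial genome of ACHN cells was followed through an RNA immunoprecipitation of MEX3A, together with the nuclear genes that resemble a stretch of its large ribosomal RNA gene. The rows were taken by name: 37 rows whose name starts with MT-, of which 2 are rRNA, 13 mRNA and 22 tRNA genes, and 13 rows whose name starts with MTRNR2L. These 50 genes were among 57820 listed. ACHN is an established human renal cell carcinoma line, and both precipitates came from cells that stably overexpress MEX3A-Flag, so the overexpressed protein was present in the control as well. Per the labels, cells were crosslinked with 0.3% formaldehyde, quenched with 0.125 M glycine, and precipitated with anti-Flag antibody (Flag) or with IgG, which gives the background of the method. mRNA was then isolated on oligo(dT) beads. The comparison asks which RNAs come down with MEX3A-Flag beyond that background. The labels name 3 samples; the IgG and Flag libraries, 1 each, were compared here, and the input sample was not analysed here. No difference below has a replicate check, and every interval covers counting error only, with each read taken as independent.

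The human mitochondrial genome is a small circle transcribed from both strands as long precursors. Most genes lie on the heavy-strand transcript, in which tRNAs punctuate rRNAs and mRNAs and are cut out to free them; the light-strand transcript holds a single mRNA, MT-ND6, and some of the tRNAs. The mRNAs encode subunits of the respiratory chain (complexes I, III and IV) and of ATP synthase (complex V), and the rRNAs build the mitochondrial ribosome. Most mitochondrial mRNAs carry short poly(A) tails, whereas MT-ND6 is known as an exception. MEX3A is a KH-domain protein of the cytoplasm and nucleus that binds RNA. The MTRNR2L genes are nuclear copies of the part of MT-RNR2 that holds the reading frame of humanin, a small cytoprotective peptide.

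Totals were 3412864 counts for IgG and 5498124 for Flag. For each gene the Flag share of total counts was divided by the IgG share, and an exact 95% Clopper-Pearson counting interval was set around this ratio. A gene counts as enriched in the Flag library where the whole interval is above 2, and as depleted where the whole interval is below 0.5. Genes with 20 or more counts in the 2 libraries together were used. Of these 10811, 28.7% were enriched and 1.32% depleted, and their median log2 ratio was 0.95, a ratio of 1.93. All 8 markers of a renal carcinoma line were detected in both libraries. Of 6 markers of immune, endothelial and fibroblast cells, PTPRC, CD3E, CDH5 and DCN were at 0 in both, VWF had 9 Flag counts, and COL1A1 had 637 IgG and 875 Flag counts.

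Mitochondrial RNA took a larger part of the Flag library. The 37 rows of the mitochondrial genome held 304783 IgG counts and 1813682 Flag counts, or 8.93% and 33% of the libraries. The summed ratio was 3.69 (3.68 to 3.71), beside a median of 1.93 for all genes that entered. With TMM scaling, described below, it was 1.98 (1.97 to 1.99) and was not called. Most of these counts were ribosomal: the 2 rRNAs made up 87.2% of mitochondrial counts in the IgG library and 91.3% in the Flag library. The share of the 13 mRNAs was 1.14% in the IgG and 2.88% in the Flag library, and the tRNA rows held none. By TPM, the authors' level per effective length, the mitochondrial share was 8.04% in the IgG library and 31.9% in the Flag library.

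Of the 15 mitochondrial genes that entered, 9 were enriched and 0 depleted, against the 28.7% and 1.32% of all genes. Each of the 15 had 1000 or more counts in sum, and among the 658 genes with that many, 50.2% were enriched and 9.88% depleted. Read against genes past that minimum, 9 of 15 is near the background. The members were not alike. Their ratios ran from 1.12 for MT-CO2 to 9.90 for MT-ATP8, and their places among all genes that entered ran from percentile 26.9 to 94.9. The enriched members were both rRNAs, MT-ATP8, MT-ATP6, MT-ND1, MT-ND2, MT-ND4, MT-ND5 and MT-ND6. MT-ND3, MT-ND4L, MT-CYB and all 3 complex IV mRNAs were not called.

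**Figure D1:**
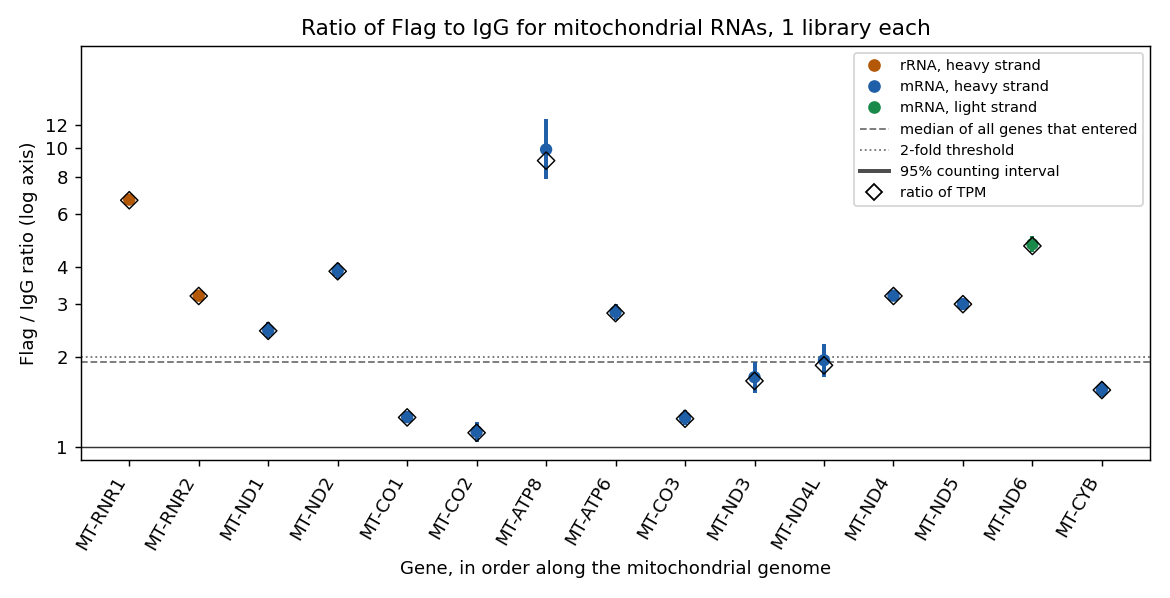
Ratio of Flag to IgG shares of total counts (log axis) for the 15 mitochondrial genes that entered, in genome order, coloured by class and strand; bars are 95% counting intervals, and diamonds are ratios of TPM. MT-ATP8 at 9.90, MT-RNR1 at 6.72 and MT-ND6 at 4.77 lie highest, and MT-CO1, MT-CO2 and MT-CO3 lie below the dashed median of all genes at 1.93.

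How many members pass depends on where the ratio of 1 is set. TMM scaling, computed on genes with at least 20 counts, multiplied every ratio by 0.536 and left 3 members enriched, MT-ATP8, MT-RNR1 and MT-ND6, and 0 depleted, against 9.94% and 7.53% of all genes. Median-of-ratios scaling left the same 3 and 0 (9.62% and 7.77% of all genes), as did a 4-fold threshold (8.55% and 0.222%). TMM over all genes, chosen after seeing the data, added MT-ND2 and left 4 and 0 (12% and 6.12%). Relations between members are free of this choice, since a scaling multiplies all of them alike. The text below therefore turns to how one member's ratio compared with another's, with a 95% Wald interval on the log scale from the counts.

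**Figure D2:**
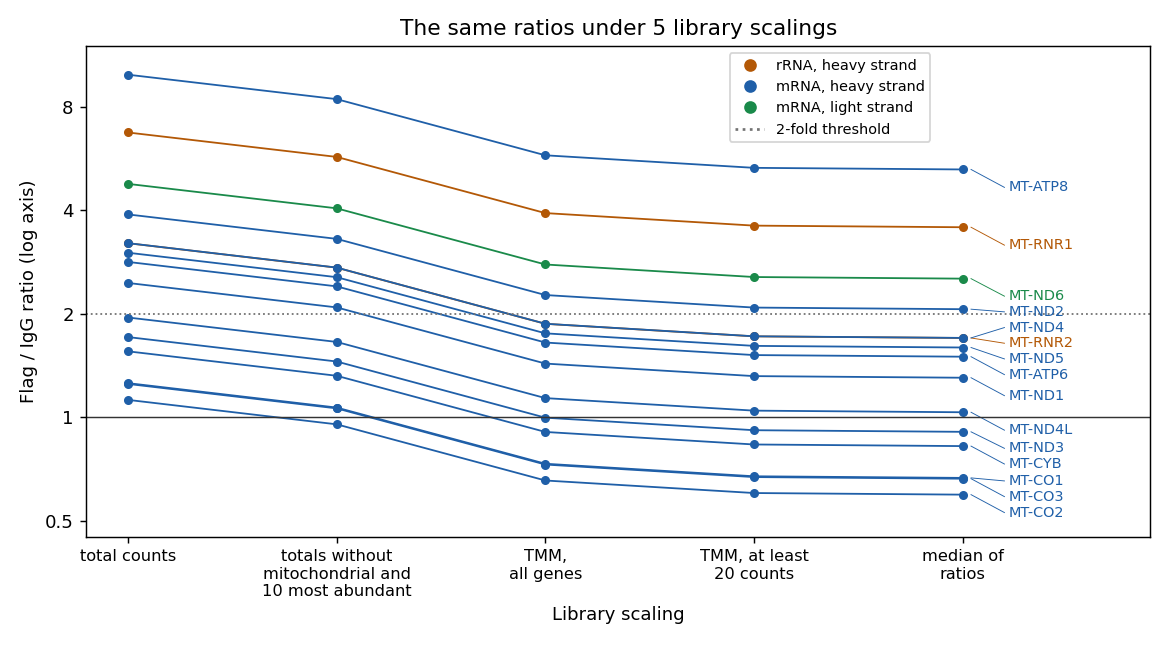
Ratio of Flag to IgG (log axis) of the 15 members under 5 library scalings, 1 line per gene. The order of the members is the same under each scaling by construction. The ratios of MT-ATP8, MT-RNR1, MT-ND6 and MT-ND2 lie above 2 throughout. Intervals are not drawn, and that of MT-ND2 reaches below 2 with TMM (1.99) and median-of-ratios scaling (1.97). MT-CO1, MT-CO2, MT-CO3, MT-CYB and MT-ND3 pass below 1 with TMM or median-of-ratios scaling.

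The 2 ribosomal RNAs differed from each other. MT-RNR1, the small-subunit rRNA, had 50021 IgG counts and 541822 Flag counts, 1.47% and 9.85% of the libraries, a ratio of 6.72 (6.66 to 6.79). MT-RNR2, the large-subunit rRNA, had 215723 IgG counts and 1113629 Flag counts, 6.32% and 20.3%, a ratio of 3.20 (3.19 to 3.22). The ratio of MT-RNR1 was 2.10 times that of MT-RNR2 (2.08 to 2.12). Both are cut from one stretch of precursor and enter the ribosome in equal numbers, as textbook background. Per effective length, the TPM of MT-RNR1 was 0.416 times that of MT-RNR2 in the IgG library and 0.870 times in the Flag library, so the levels of both rRNAs lay closer together in the Flag library.

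The sum of the rRNAs stood above the sum of the mRNAs, though not gene by gene. Summed, the rRNAs had a ratio of 3.87 (3.85 to 3.88) and the 13 mRNAs 2.52 (2.49 to 2.54). The rRNA ratio was 1.54 times the mRNA ratio (1.52 to 1.56). The difference lay mainly in MT-RNR1, at 2.67 times the mRNA sum (2.63 to 2.71), while MT-RNR2 was at 1.27 times (1.26 to 1.29), or 1.10 times by TPM. MT-RNR2 had nearly the ratio of MT-ND4, at 3.20 and 3.21. The mRNAs MT-ND2 (3.89), MT-ND6 (4.77) and MT-ATP8 (9.90) lay above MT-RNR2, and MT-ATP8 also lay above MT-RNR1 (6.72).

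Among mRNAs the levels were more even in the IgG library. Their TPM ran from 688 for MT-ND2 to 1749 for MT-ND6 in the IgG library, a 2.54-fold range with a median of 1116. In the Flag library TPM ran from 1056 for MT-CO2 to 9238 for MT-ATP8, an 8.75-fold range with a median of 2251. MT-ND2 moved from the lowest of 13 places in the IgG library to place 6 in the Flag library. MT-CO3 moved from place 3 to place 9. The MT-ND6 values may include reads of heavy-strand RNA, since the strand setting is not given.

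**Figure D3:**
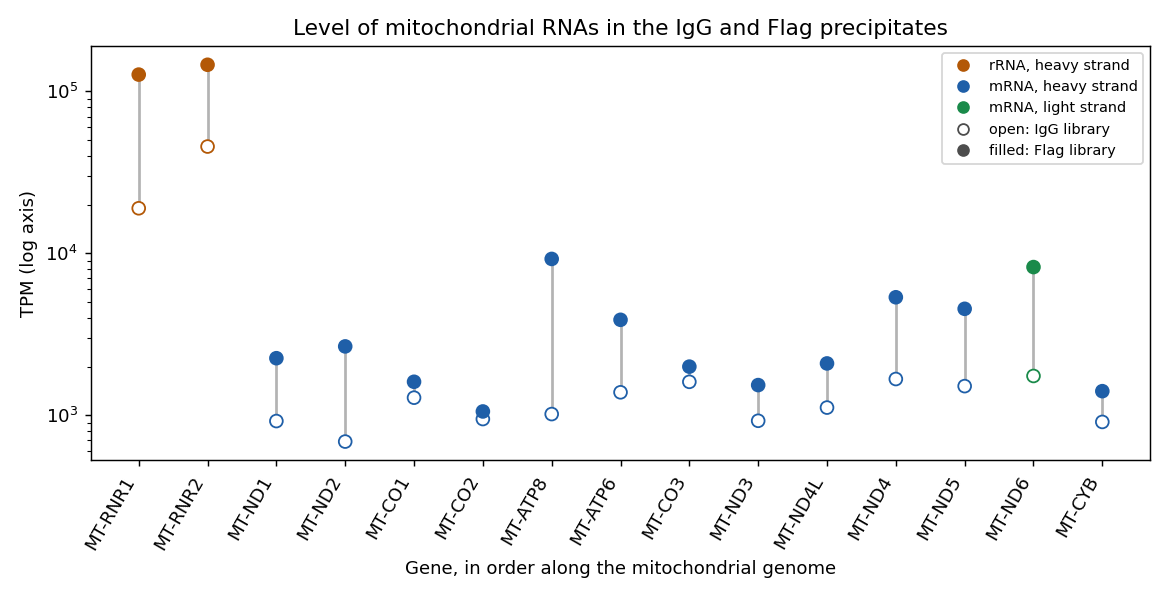
TPM (log axis) of the 15 mitochondrial genes with counts, in genome order; open points are the IgG library, filled points the Flag library, and grey lines join them. The rRNAs lie far above the mRNAs in both libraries; MT-ATP8 (1017 to 9238 TPM) and MT-ND6 (1749 to 8227 TPM) have the longest lines among mRNAs and MT-CO2 (948 to 1056 TPM) the shortest.

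Complex I mRNAs encode core subunits of NADH dehydrogenase. MT-ND1, MT-ND2, MT-ND4, MT-ND5 and MT-ND6 were enriched, and MT-ND3 and MT-ND4L were not called. Of all genes with 1000 or more counts, 50.2% were enriched. With TMM scaling, MT-ND6 alone of the complex I mRNAs kept its call. MT-ND1 had 2433 IgG counts and 9626 Flag counts, a ratio of 2.46 (2.35 to 2.57). MT-ND2 had 2022 IgG counts and 12656 Flag counts, a ratio of 3.89 (3.71 to 4.07). The mRNAs of MT-ND1 and MT-ND2 are near neighbours on the heavy strand, and the ratio of MT-ND1 was 0.632 times that of MT-ND2 (0.593 to 0.674).

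MT-ND4 had 6863 IgG counts and 35446 Flag counts, a ratio of 3.21 (3.12 to 3.29). MT-ND5, which ends this run of complex I genes on the heavy strand, had 8470 and 41024 counts, a ratio of 3.01 (2.94 to 3.08). The ratio of MT-ND4 was 1.07 times that of MT-ND5 (1.03 to 1.10), so these 2 mRNAs were close. The shortest complex I rows, MT-ND3 and MT-ND4L, stood lower and were not called. MT-ND3 had 497 and 1369 counts, a ratio of 1.71 (1.54 to 1.90), and MT-ND4L had 414 and 1300, a ratio of 1.95 (1.74 to 2.18).

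Complex IV mRNAs, which encode the catalytic core of cytochrome c oxidase, had the lowest ratios. MT-CO1 had 5990 IgG counts and 12122 Flag counts, a ratio of 1.26 (1.22 to 1.30). MT-CO2 had 1614 and 2920 counts, a ratio of 1.12 (1.06 to 1.19). MT-CO3 had 3295 and 6633 counts, a ratio of 1.25 (1.20 to 1.30). The 3 thus lay within a narrow span, and summed to a ratio of 1.23 (1.21 to 1.26), below the median of all genes; with TMM scaling the sum was 0.662, though none was called depleted.

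The contrast between the complexes was larger than counting error, the only spread measured here. Rows read from 1 shared mRNA also differed by more than that: MT-ATP8 was at 3.50 times MT-ATP6, and MT-ND4L at 0.608 times MT-ND4. The 6 complex I mRNAs of the heavy strand summed to a ratio of 3.04 (2.996 to 3.09), which was 2.46 times that of the complex IV mRNAs (2.40 to 2.53). By TPM the same contrast was 2.22. Heavy-strand complex I ratios themselves ran from 1.71 for MT-ND3 to 3.89 for MT-ND2. Genes of both complexes are interleaved on the same precursor: MT-ND2 and MT-CO1 follow each other, with only tRNAs between them, and the ratio of MT-ND2 was 3.09 times that of MT-CO1 (2.92 to 3.27). MT-CYB, the cytochrome b subunit of complex III and the last mRNA in genome order, had 2984 IgG counts and 7471 Flag counts, a ratio of 1.55 (1.49 to 1.62), below the threshold. In the same order the ratio did not run steadily up or down: it was high at MT-ND2, low at MT-CO1 and MT-CO2, high at MT-ATP8 and MT-ATP6, low at MT-CO3 and high again at MT-ND4 and MT-ND5.

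The row of the light-strand mRNA stood above the sum of the heavy-strand mRNAs. MT-ND6, a complex I subunit, had 2018 IgG counts and 15496 Flag counts, a ratio of 4.77 (4.55 to 5.00), at percentile 82.6 of all genes that entered. The 12 heavy-strand mRNAs summed to a ratio of 2.39 (2.37 to 2.42), and the ratio of MT-ND6 was 1.99 times theirs (1.90 to 2.09), or 1.75 times by TPM. The excess held against both neighbours, since it was 1.59 times that of MT-ND5 (1.51 to 1.67) and 3.07 times that of MT-CYB (2.88 to 3.27). Its place is not outside the heavy-strand range, in which MT-ATP8 lay higher. All 28 heavy-strand genes, rRNAs included, summed to 3.69 (3.67 to 3.70). A strand setting of the counting is not given in the sources used here. Reads from MT-ND6 and from any heavy-strand RNA opposite to it, precursor or not, therefore cannot be told apart.

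**Figure D4:**
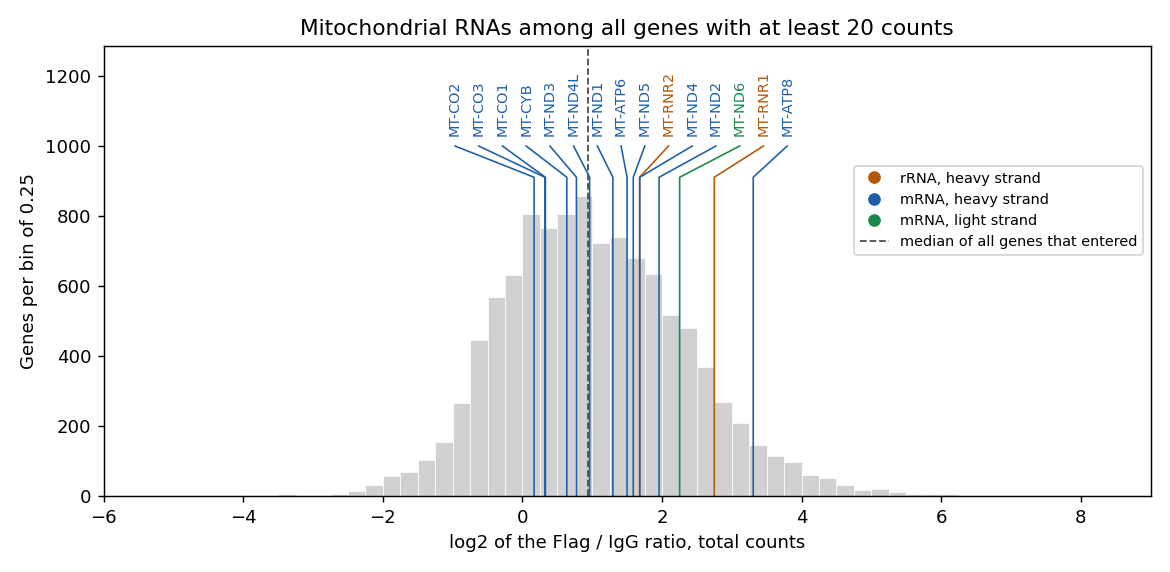
Number of genes per bin of 0.25 in the log2 ratio of Flag to IgG, over the 10811 genes that entered; coloured lines mark the 15 mitochondrial genes and the dashed line the median of 0.95. The members spread from 0.17 (MT-CO2) to 3.31 (MT-ATP8), on both sides of the median and within the body of the distribution.

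Complex V is represented by MT-ATP8 and MT-ATP6, which overlap and are read from 1 shared mRNA. MT-ATP8 had 93 IgG counts and 1483 Flag counts, a ratio of 9.90 (8.02 to 12.3), the highest of the 15. MT-ATP6 had 2346 and 10685 counts, a ratio of 2.83 (2.70 to 2.96). The ratio of MT-ATP8 was 3.50 times that of MT-ATP6 (2.83 to 4.34), or 3.24 times by TPM. Summed, the pair had a ratio of 3.10 (2.96 to 3.24) by counts and of 5.46 by TPM, in which the short MT-ATP8 weighs more.

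MT-ATP8 rests on few fragment positions. Its row is 207 bases long with an effective length, the number of positions at which a fragment could start, of 26.5 in the IgG library and 28.9 in the Flag library. Length minus effective length plus 1, the mean fragment length behind these values, was 191.7 bases in the IgG library and 186.7 in the Flag library for every one of 7073 genes with a single transcript of over 1000 bases. Counts of MT-ATP8 were whole in both libraries. Whole counts do not show how many reads were shared with another gene. Of the 9 genes that entered with an effective length under 50 in both libraries, a set chosen after its values were seen, the other 8 had ratios from 0.207 for the snoRNA SNORA74A to 1.29 for LINC00338. None of these 8 is a mitochondrial gene, so they cannot show what ratio a short mitochondrial row would have. Whether fragment length has a part in the MT-ATP8 ratio was not tested.

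A second overlapping pair, MT-ND4L and MT-ND4, ran the other way. The ratio of the short MT-ND4L was 0.608 times that of MT-ND4 (0.543 to 0.681), and by TPM 0.586 times. Both are likewise carried on 1 mRNA. Summed, the pair had a ratio of 3.13 (3.06 to 3.21), close to that of MT-ND4 alone.

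The tRNAs, which decode the mitochondrial code, were not measurable in these tables. All 22 rows were listed at 0 in both libraries. Their lengths were 59 to 75 bases, shorter than the mean fragment, and their effective length was 0 in both. The same held for every short row: of 8392 genes with an effective length of 0 in both libraries, 0 had a count. The 0 of a tRNA row is thus no level. The light-strand comparison rests on MT-ND6 alone, since the other 8 light-strand genes are tRNAs.

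The humanin-like nuclear copies had counts at or near 0. Of 13 MTRNR2L rows, 10 were at 0 counts in each library. By counting error alone, up to 0.879 CPM in the IgG and 0.546 CPM in the Flag library remains possible for each of them. Shared reads that were given to MT-RNR2 are not covered by this limit, so it does not bound the true level. MTRNR2L8 had 1 IgG count and 4 Flag counts, MTRNR2L4 had 0 and 2, and MTRNR2L12 had 0 and 3. Their lengths, 527 to 1739 bases, would allow counts, unlike those of the tRNAs. Summed, the copies had 1 IgG count and 9 Flag counts, a ratio of 5.59 with an interval from 0.774 to 244.9, which holds the MT-RNR2 ratio of 3.20. A difference from MT-RNR2 was not detectable at this depth. Per 1000000 counts of MT-RNR2 there were 4.64 counts on all copies together in the IgG library and 8.08 in the Flag library. All counts of MT-RNR2 and of the copies were whole. Shared reads given almost wholly to the abundant gene would leave whole counts too, so this does not show how many were shared. The sum of MT-RNR2 and the copies had the same ratio as MT-RNR2 alone, which so few counts could not have moved. The tables list all 13 copies as protein-coding, while the RefSeq table for GRCh38.p14 gives all 13 as pseudogenes.

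Fractional counts, a sign of divided reads, were found with other nuclear copies. Of 175 rows named as numbered pseudogenes of mitochondrial genes, 14 had counts, 5 in the IgG library and 13 in the Flag library, and 1 had at least 20. That 1, MTATP6P1, a copy of MT-ATP6, had 341 IgG counts and 1664 Flag counts, a ratio of 3.03 (2.69 to 3.41), and was enriched. Its counts were fractional, as were those of MT-ATP6, and together they made the whole numbers 2687 and 12349. MTATP6P1 took 12.7% of this sum in the IgG library and 13.5% in the Flag library, and the sum had a ratio of 2.85 (2.74 to 2.98). The division therefore moved the value of MT-ATP6 little. The next by counts were MTND5P11 (2 IgG and 14 Flag counts), MTND2P28 (2.29 and 9.43 expected counts), MTND4P12 (1 and 8) and MTND6P4 (0 and 7).

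The other fractional members were MT-ND2 and MT-CO1. MT-ND2 and MTND2P28 summed to the whole numbers 2024 and 12665, and the copy took 0.113% and 0.0745% of them. MT-CO1 summed to 6007 and 12139 with a pseudogene row named hsa-mir-6723, found after its values were seen, which took 0.283% and 0.137%. With these copies added, the ratios were 3.88 for MT-ND2 and 1.25 for MT-CO1. The other 12 mitochondrial genes that entered had whole counts.

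Nuclear genes for the upkeep of mitochondrial RNA were read from a list of factors for its transcription, processing, stability and modification. Of 52 that entered, of 57 rows listed, 9 were enriched and 0 depleted, beside 28.7% and 1.32% of all genes, and 4 and 1 with TMM scaling (9.94% and 7.53% of all genes). Many factors had few counts: of 32 with 20 to 99 counts 4 were enriched, beside 17.2% of all such genes, and of 20 with 100 or more counts 5, beside 37.9%. A difference between the list and other genes was not tested. Their median log2 ratio was 0.81, against 0.95 for all genes. TFAM, which packages mitochondrial DNA and starts its transcription, had 40 IgG counts and 475 Flag counts, a ratio of 7.37 (5.33 to 10.5). SSBP1, the mitochondrial single-strand DNA-binding protein, had 46 and 511 counts, a ratio of 6.90 (5.09 to 9.54). At the other end POLRMT, the mitochondrial RNA polymerase, had 133 and 171 counts, a ratio of 0.798 (0.633 to 1.01), and FASTK had 91 and 96, a ratio of 0.655 (0.486 to 0.882). FASTK was the member depleted with TMM scaling.

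By group, 2 of 12 transcription and DNA maintenance genes, 3 of 13 processing genes, 2 of 9 stability genes and 2 of 18 modification genes were enriched, beside the 28.7% of all genes. With TMM scaling these counts were 2, 1, 1 and 0, beside 9.94%. The text names the remaining enriched members because of their values. They were REXO2, which degrades short RNA fragments in mitochondria (5.92, 4.17 to 8.65), SLIRP, a partner of LRPPRC in stabilising mitochondrial mRNAs (4.97, 3.07 to 8.48), TRMT10C, a subunit of mitochondrial RNase P (7.01, 3.25 to 17.99), PTCD1 (5.20, 3.09 to 9.36, with fractional counts), and the tRNA modification genes TRMT61B (4 IgG and 53 Flag counts, 8.22, 3.03 to 31.3) and MTO1 (5 and 41 counts, 5.09, 2.01 to 16.5). Of these, SLIRP, TRMT10C, PTCD1, TRMT61B and MTO1 lost their calls with TMM scaling. LRPPRC itself had 103 IgG counts and 349 Flag counts, a ratio of 2.10 (1.68 to 2.65), which left it uncalled. The ninth was 1 of 2 rows named KIAA0391, the nuclease subunit of RNase P, with 0 and 27 counts, some of them fractional. The sum of both rows, 15 IgG and 47 Flag counts, had a ratio of 1.94 (1.07 to 3.74), which would not be called.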

How the data were processed

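The tables of the IgG and Flag libraries (ACHN cells expressing MEX3A-Flag, 1 library each) have the columns of an RSEM gene table, per the file headers. The deposited expected counts are not normalized; they were rounded to whole numbers. The deposited TPM and FPKM values are scaled by the authors to effective length and library, per the file headers, and were used for levels between genes (TPM) and as alternatives. The submitters' processing notes name RSEM, STAR, GRCh37 and hg19, without versions or roles. Neither the annotation release nor the strand setting is given in the sources used here. Intervals cover counting error only and take each read as independent. Reads are not counted by molecule, and reads copied from 1 molecule would make the intervals too narrow.

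Genes with 20 or more counts in sum entered. Ratios and exact intervals were computed in Python 3.11.15 with SciPy 1.17.1. The calls were tried on simulated data with counting error only, the error that the interval assumes. That cannot show how the calls fare with variation between libraries or precipitations. With 1 library per group, no p-value was computed. A count of 0 allows up to 3 counts. A count was taken as whole within 0.01.

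All 15 members with at least 20 counts are named, and the others are counted; of the factor list, 2 members at each end by interval bound, and of pseudogenes the 5 with most counts. Members and lists were chosen with earlier results of these data known. Comparisons of classes, of strands and with the nuclear copies were planned. Sums by complex and comparisons of 1 member with another were not among the planned results. Alternatives were scaling by TMM from edgeR 4.0.16 or by the median of ratios from DESeq2 1.42.0, totals that leave out mitochondrial genes and the 10 most abundant genes (reduced totals), filters, TPM, FPKM, thresholds, a 99% interval and 0.5 counts added; 3 more settings (TMM over all genes, whole counts only, 1000 or more counts), sums with pseudogene copies and a split of the background by counts were chosen after seeing the data.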

Additional observations from a re-analysis of the deposited data

How the results depend on the processing

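The 9 enriched members became 3 with TMM or median-of-ratios scaling and at a 4-fold threshold, 4 with TMM over all genes (MT-ATP8, MT-ND2, MT-ND6 and MT-RNR1, against 12% of all genes), 8 with reduced totals (22.3% of all genes), 11 at 1.5-fold (40%) and 7 of the 12 members with whole counts (29.2%). They were 9 with TPM (44.2%, or 37.7% at a pseudocount of 1), FPKM (44.2%), no filter (18.7%), at least 100 counts (37.9%), at least 1000 (50.2%), a 99% interval (23.5%) and 0.5 counts added (27.8%). In each of these settings 0 were depleted. TPM and FPKM carry no counting interval, so those calls used the ratio alone. Their shares of all genes are thus not comparable with the 28.7% of the main rule. The median log2 ratio of the mRNAs, 1.30, was 0.40 with TMM, 0.38 with median-of-ratios, 0.52 with TMM over all genes, 1.06 with reduced totals and 1.13 with whole counts only. The mRNA sum lost its call with TMM (1.35), median-of-ratios (1.33) and TMM over all genes (1.47), and the heavy-strand sum with TMM (1.98) and median-of-ratios (1.96). The sum of all mitochondrial genes also lost its call with TMM (1.98) and median-of-ratios (1.96). At 4-fold the rRNA (3.87), mRNA (2.52), heavy-strand (3.69) and whole mitochondrial (3.69) sums lost theirs. The light-strand sum kept its call in every setting.

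Ratios passed below 1 with TMM, median-of-ratios and TMM over all genes, in that order, for MT-CO1 (0.674, 0.666, 0.732; with its copy 0.673, 0.665, 0.731), MT-CO2 (0.602, 0.596, 0.655; 0.954 with reduced totals), MT-CO3 (0.670, 0.663, 0.729), their sum (0.662, 0.655, 0.720), MT-CYB (0.833, 0.824, 0.906) and MT-ND3 (0.917, 0.907, 0.997). These scalings multiply every ratio alike, by 0.536, 0.530 and 0.583. TPM, FPKM, the filters, the 99% interval and 0.5 added counts changed no member's call. MT-ND1 lost its call with reduced totals (2.09).

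The tRNA sum has no value in any setting. Leaving out a library leaves no comparison. No paired analysis was possible because each group has 1 library. Depth limits the nuclear copies, with 10 counts in all.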
